A study of Anopheles gambiae with 15 samples.

Results

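Anterior midgut of 4th instar Anopheles gambiae larvae was compared with whole larvae of the same stage on 6 arrays, 3 for each group, out of 15 arrays in the series. The arrays were chosen by their titles. The anterior midgut group holds the front stretch of the midgut tube, cut from guts that were dissected on ice-anaesthetised larvae in 70% ethanol. Each of its 3 arrays carries RNA pooled from 1000 guts. The whole-larva group holds intact larvae, and each of its arrays carries RNA pooled from 200 individuals. Both groups are of the G3 strain, reared at 28 °C on yeast and fish food with 12 h of light per day, and neither carries a transgene or received a treatment according to the labels. The labels call the arrays of a group biological repeats. The comparison addresses which transcripts the section holds in excess over the whole animal.

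The larval midgut of mosquitoes is a tube of a single epithelial layer around the food. Its anterior part is known for a strongly alkaline lumen, which the epithelium builds up by pumping ions with V-type ATPases and with exchangers and carbonic anhydrases. Gastric caeca and posterior midgut are known for enzyme secretion, nutrient uptake and ion transport. Whole larvae contain this gut along with cuticle, muscle, fat body, nervous system and other tissues, so the section's RNA is also part of what it was set against. In such bulk RNA, fewer cells of a type and less RNA per cell cannot be told apart.

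The array reads a transcript with a group of short probes, a probe set, whose level is given on a log2 scale, on which a difference of 1 is 2-fold. Of 22761 probe sets, the 16884 whose ID starts with Ag. were tested. No gene is paired with a probe set ID in the files, and none of the IDs was found in RefSeq's genes of assembly idAnoGambNW_F1_1. The anterior midgut label could therefore not be checked against marker genes, and the genes of ion transport named above could not be looked up. No levels of different probe sets are set against each other as amounts.

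Anterior midgut array 2 stood apart from the other 5 arrays before any comparison was made. The standard deviation over the tested probe sets was 1.59, 1.40 and 1.70 log2 units on anterior midgut arrays 1, 2 and 3, against 1.68, 1.76 and 1.71 in whole larvae. The anterior midgut arrays averaged 1.56 ± 0.15 (SD, n = 3) and the whole-larva arrays 1.72 ± 0.04, a difference with an exact two-sided permutation p = 0.2, where 0.1 is the smallest p that 3 arrays against 3 can give. The medians of the arrays were nearly the same, 5.10, 5.19 and 5.09 in anterior midgut and 5.14, 5.12 and 5.09 in whole larvae. The narrow range of array 2 lay in the upper part of the distribution. Its 95th percentile was 7.92, against 8.96 and 9.27 on anterior midgut arrays 1 and 3 and 9.20 to 9.39 on the whole-larva arrays. Probe sets above a level of 8 numbered 1240, 823 and 1511 on anterior midgut arrays 1, 2 and 3, and 1546, 1777 and 1614 on whole-larva arrays 1, 2 and 3.

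Control probe sets showed the same array at an extreme. Bacterial and phage transcripts (bioB, bioC, bioD and cre) are added to each sample in rising amounts as hybridization controls. The cre probe set of the 5′ end read 12.55, 10.71 and 12.64 on anterior midgut arrays 1, 2 and 3, against 12.91, 12.08 and 12.59 on whole-larva arrays 1, 2 and 3. For bioD the values were 10.45, 7.62 and 10.94 in anterior midgut, against 11.03, 9.84 and 10.93 in whole larvae. Array 2 was thus the lowest of the 6 for each of these spikes, as it was for bioC at 6.94 and bioB at 5.94. Probe sets whose ID starts with a number were instead brightest there. Their 95th percentile, used below as an upper estimate of background, was 5.83, 6.56 and 5.44 in anterior midgut, against 5.17, 5.26 and 5.35 in whole larvae. For the 4506 IDs beginning with Pf, a lower estimate, this percentile was 4.12, 4.18 and 4.04 in anterior midgut, against 3.94, 3.94 and 4.07 in whole larvae. On array 2 the bioB spike therefore lay below the upper background estimate. The part of these array differences in the results was not tested, and results are given per array or also without array 2.

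**Figure D1:**
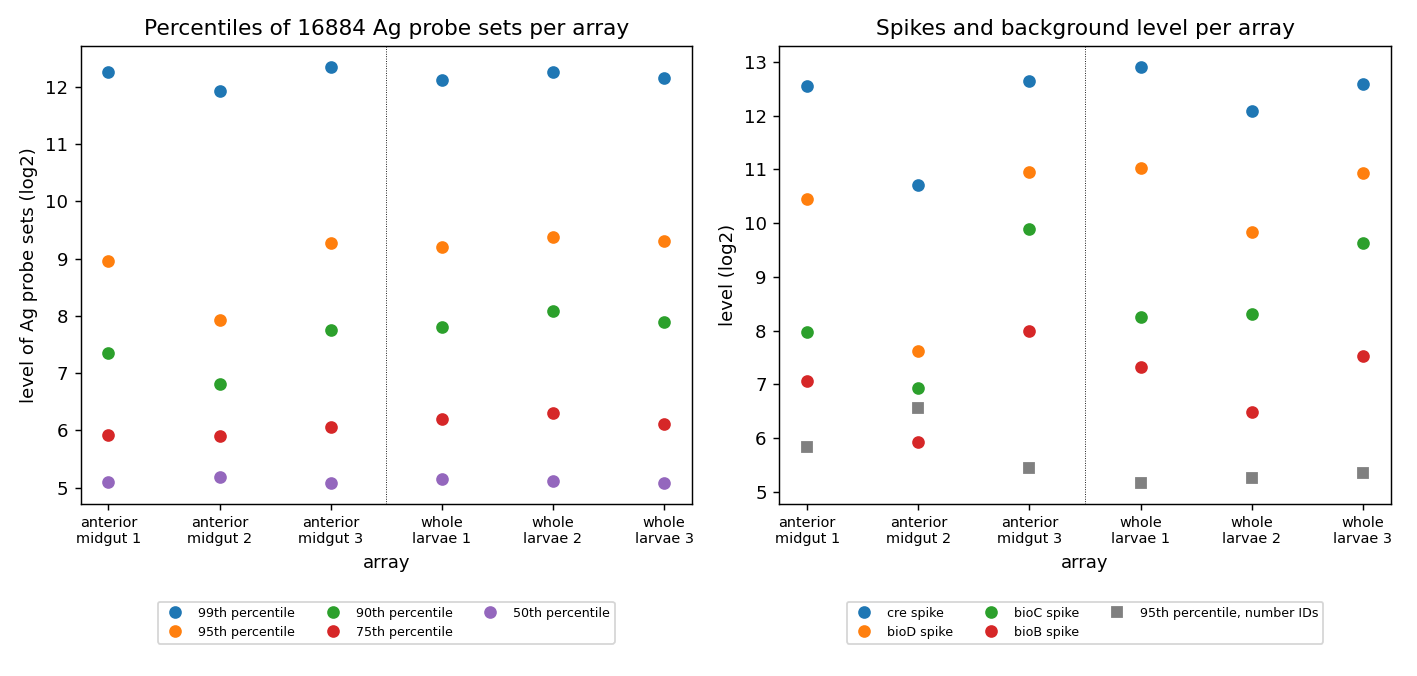
Left, percentiles of the tested probe sets on each array in log2 units; right, levels of the 5′ probe sets of 4 added spikes and the 95th percentile of IDs that start with a number, also in log2 units. Each point is 1 array, anterior midgut left of whole larvae: anterior midgut array 2 has the lowest 95th percentile (7.92), the lowest spikes and the highest background level (6.56).

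In a measure of labelling the arrays lay closer together, with array 2 again the lowest of the 6. Control probe sets for actin and Gapdh lie at both ends of the transcript, and the 3′ level minus the 5′ level, which grows when labelling favours the 3′ end, averaged 1.07, 0.69 and 0.93 in anterior midgut and 0.78, 1.08 and 0.93 in whole larvae. The groups overlapped, and the means of 0.90 ± 0.19 and 0.93 ± 0.15 gave an exact permutation p = 0.7 (n = 3 per group). The direction of this small difference turned when anterior midgut array 2 or whole-larva array 2 was left out.

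These control probe sets also give the only named genes of the mosquito, by the maker's IDs. Actin, the protein of muscle and of the cytoskeleton, read 13.06, 12.93 and 12.64 in anterior midgut against 11.93, 12.31 and 11.50 in whole larvae with its middle probe set. All 3 anterior midgut arrays lay above all 3 whole-larva arrays, and the same held for the 5′ probe set of actin. For the 3′ probe set it held only narrowly, with 12.31 on anterior midgut array 2 against 12.29 on whole-larva array 2. The actin IDs carry an _s suffix, which in this maker's IDs marks probes shared by several transcripts. The middle probe set was 1.95-fold higher in anterior midgut (limma adjusted p = 0.124 over the whole table), which did not pass the test. Gapdh, an enzyme of glycolysis, read 11.63, 11.47 and 11.63 in anterior midgut against 12.16, 12.85 and 12.67 in whole larvae. All 3 of its probe sets lay lower on every anterior midgut array than on any whole-larva array, and the middle one differed 1.98-fold (limma adjusted p = 0.078), again short of the threshold. For the middle Gapdh probe set the difference was -0.99 log2 units in the deposited values. It was -0.899 after the values were quantile normalized again, -0.996 after median centring and -0.934 without anterior midgut array 2. Only after each array was centred and scaled to the same spread was it absent, at 0.04. Under that scaling the 5′ probe set of Gapdh stayed lower, at -0.416, and the 3′ probe set lay at -0.074. The difference of the middle actin probe set was positive under each scaling, at 0.96 to 2.08.

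Far more probe sets were lower than higher in anterior midgut. A linear model of the 6 arrays, fitted with limma to all tested probe sets, called 161 probe sets higher (0.954% of those tested) and 536 lower (3.17%) at an adjusted p under 0.05 and at least 2-fold, 697 in all (4.13%). Higher ones made up 23.1% of the calls. At an unadjusted p under 0.05 and at least 2-fold there were 400 higher and 1316 lower probe sets. The split depended on the scaling of the arrays. When the values were quantile normalized again, 396 were higher and 481 lower, a share of 45.2% higher, and 302 and 488 (38.2%) after centring and scaling. Without anterior midgut array 2 there were 242 higher (1.43%) and 378 lower (2.24%), a share of 39.0%. These shared 120 higher and 359 lower calls with the fit of all 6 arrays.

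Which array was left out mattered in other ways too. Without anterior midgut array 1 the fit gave 41 higher and 185 lower calls, and without array 3 it gave 170 and 510. Leaving out whole-larva arrays 1, 2 and 3 gave 106, 73 and 117 higher and 565, 355 and 544 lower calls. Called in the same direction whichever of the 6 arrays was left out were 34 higher and 175 lower probe sets. With a spread shared by all 15 arrays of the series the counts were 396 (2.35%) and 1343 (7.95%). The fit of the 6 arrays uses only their own spread. Replicate SDs, as root mean squares over the tested probe sets, came to 0.470 log2 units among the anterior midgut arrays, 0.325 without array 2, and 0.442 among the whole-larva arrays. They were lower in the remaining sections, at 0.242 in gastric caeca, 0.252 in posterior midgut and 0.237 in hindgut.

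**Figure D2:**
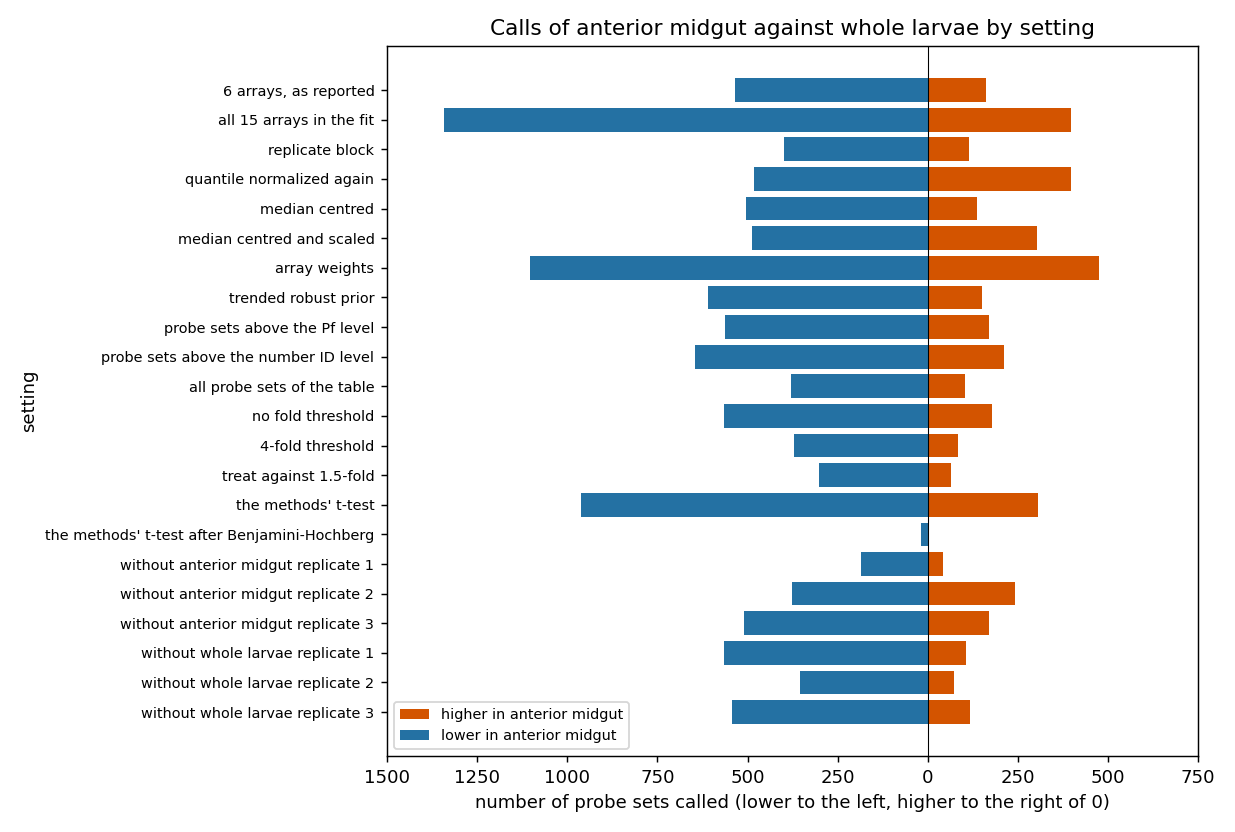
Number of probe sets called higher (bars right of 0) and lower (bars left of 0) in anterior midgut than in whole larvae, under each fit, scaling, filter, threshold and set of arrays. The fit of 6 arrays gave 161 and 536, and lower calls outnumbered higher ones in every setting shown.

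The same table without any model gives the extent of separation between the groups. All 3 anterior midgut arrays lay above all 3 whole-larva arrays for 2950 probe sets (17.5%) and below them for 2315 (13.7%). Among these, 383 were also at least 2-fold higher by the means and 1302 at least 2-fold lower. A stricter count requires each of the 9 differences between an anterior midgut and a whole-larva array to be at least 2-fold. It was met by 128 probe sets in the higher direction and by 506 in the lower direction, among them 112 of the 161 called higher and 430 of the 536 called lower. The groups of every called probe set did not overlap. By the means alone 461 probe sets were at least 2-fold higher and 1648 at least 2-fold lower, so most of the 2-fold differences did not pass the test. Among the 300 higher ones that did not pass, the anterior midgut SD exceeded the whole-larva SD in 215, with medians of 0.72 and 0.42 log2 units. The 1112 lower ones that did not pass had medians of 0.55 in anterior midgut and 0.77 in whole larvae. In 438 of these the anterior midgut SD was the larger, so the whole-larva pools varied more in most but not all of them.

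Anterior midgut array 2 carried the most single differences of 2-fold or more. Against the mean of the whole-larva arrays, 632, 1269 and 739 probe sets were at least 2-fold higher on anterior midgut arrays 1, 2 and 3, and 1610, 2677 and 1276 at least 2-fold lower. Each whole-larva array was likewise set against the mean of the remaining whole-larva arrays. There 512, 712 and 293 probe sets were at least 2-fold higher on whole-larva arrays 1, 2 and 3, and 534, 257 and 575 lower. The higher counts of anterior midgut arrays 1 and 3 were thus near that of whole-larva array 2. Large rises were fewer on anterior midgut array 2 all the same. At least 4-fold higher were 182, 101 and 191 probe sets on anterior midgut arrays 1, 2 and 3, and at least 4-fold lower 610, 1023 and 500. In 47.9% of the tested probe sets array 2 was the anterior midgut array farthest from the middle value of the 3, against 36.1% for array 3 and 16.0% for array 1. The 3 whole-larva arrays held that place in 33.6%, 32.9% and 33.5%. Across probe sets, which share their arrays and are no replicates, anterior midgut array 2 correlated with arrays 1 and 3 at r = 0.919 and 0.871, and these with each other at 0.963. Array 3 was the anterior midgut array most like whole larvae, with r = 0.840, 0.859 and 0.899 to whole-larva arrays 1, 2 and 3, followed by array 1 with 0.813, 0.827 and 0.855 and array 2 with 0.740, 0.755 and 0.784.

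The deviation of array 2 was tied to the level of the probe sets. At mean levels from 7 to 8 (975 probe sets) the median difference from the whole-larva mean was -0.41, -1.36 and 0.09 log2 units on anterior midgut arrays 1, 2 and 3. From 8 to 10 (832 probe sets) it was -0.03, -1.17 and 0.31. Array 2 was thus lower by more than 2-fold at the median of these classes, where array 3 was slightly higher. Below a level of 5 the order was reversed, with medians of 0.09, 0.23 and 0.04 from 4.5 to 5 (3892 probe sets). Above 12 (162 probe sets) the medians were -0.24, -0.44 and -0.10, closer together again. The share of calls differed between levels. The level of a probe set is here its mean over all 6 arrays, so a large difference itself moves it between classes. Of the probe sets between 7 and 8, 12.9% were called lower and 1.85% higher. Between 8 and 10 these shares were 12.7% and 7.69%. Between 10 and 12 (280 probe sets) 4.29% were called lower and 12.9% higher. For the counts without array 2 the classes were still set by the mean over all 6 arrays. Without array 2 the class from 7 to 8 held 45 higher and 96 lower calls, against 18 and 126 with it. The class from 6 to 7 (2198 probe sets) held 54 higher and 118 lower, against 22 and 167 with it. From 8 to 10 there were 85 higher and 92 lower calls without array 2, against 64 and 106 with it. From 10 to 12 the counts hardly moved, at 34 and 11 against 36 and 12. Above 12 they were 8 and 2 against 14 and 2.

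**Figure D3:**
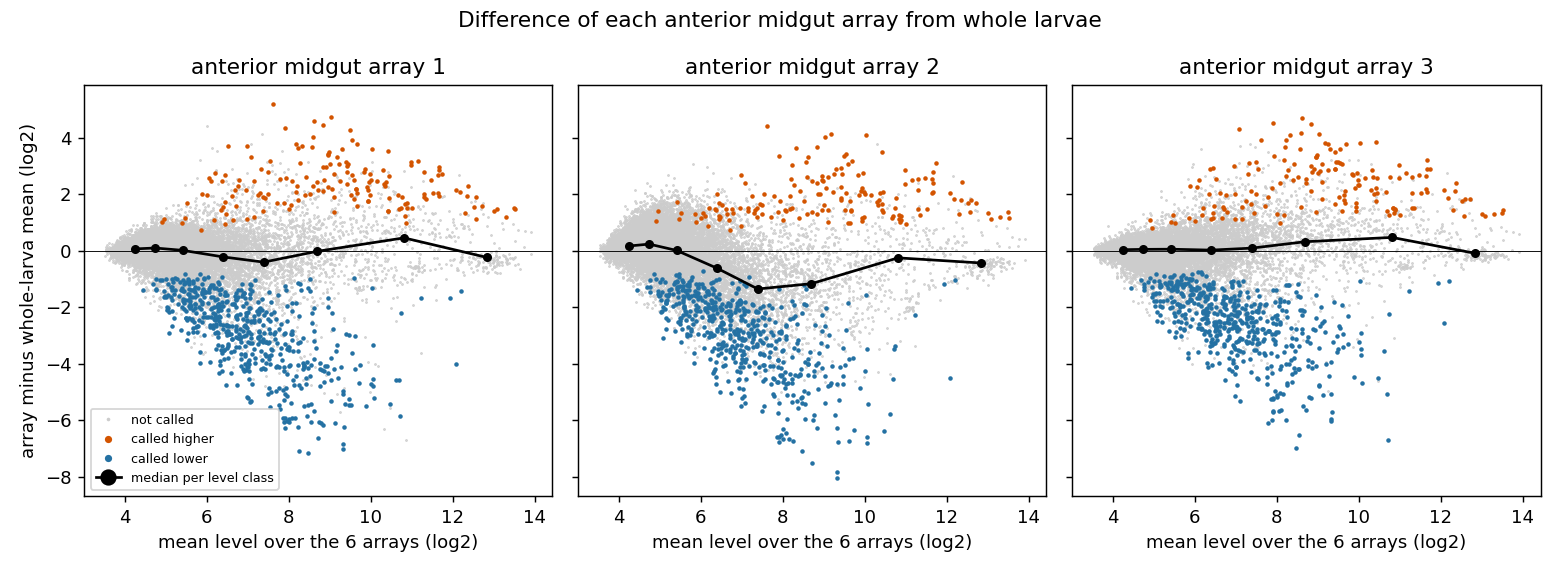
Each anterior midgut array minus the mean of the 3 whole-larva arrays (log2, vertical) against the mean level over the 6 arrays (log2, horizontal), 1 point per tested probe set and 1 panel per array, with called probe sets coloured and the median of each level class joined by the black line. The line dips to -1.36 on array 2 between levels 7 and 8, where it stands at -0.41 on array 1 and 0.09 on array 3.

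Probe sets called higher in anterior midgut were bright in that section. Their median level was 10.78, 10.06 and 10.67 on anterior midgut arrays 1, 2 and 3, against 7.57, 7.77 and 8.20 on whole-larva arrays 1, 2 and 3. Array 2 was the lowest of the anterior midgut arrays for 112 of the 161, and the median rise over the whole-larva mean was 2.19, 1.67 and 2.20 log2 units on arrays 1, 2 and 3. The rise was at least 2-fold on array 2 alone for 155 of them, on array 1 for 156 and on array 3 for 158. By the means of the groups the median change was 4.13-fold and the largest 22.8-fold. A change of 4-fold or more was found for 84 of the 161 and of 10-fold or more for 17, and 45 had an adjusted p under 0.01.

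No ID can be given a gene, so the 2 with the largest rise are described only by their values. Ag.3R.871.0_CDS_at read 10.56, 9.77 and 9.29 on anterior midgut arrays 1, 2 and 3, against 5.00, 5.69 and 5.40 on whole-larva arrays 1, 2 and 3. Even the lowest anterior midgut array lay 3.60 log2 units above the highest whole-larva array. The mean difference was 4.51 ± 0.36 log2 units (SE), or 22.8-fold (limma adjusted p = 0.00242), and single anterior midgut arrays gave 36.8-, 21.3- and 15.2-fold over the whole-larva mean. In whole larvae 2 of the 3 arrays were above the upper background estimate. With that level put in for the array below it, the probe set was at least 21.9-fold higher by the group means. It read 7.71 ± 0.83 (SD, n = 3) in gastric caeca, 7.38 ± 1.06 in posterior midgut and 4.68 ± 0.39 in hindgut, a sample that includes the Malpighian tubules.

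Ag.3L.444.0_CDS_at read 11.61, 10.92 and 11.00 in anterior midgut, against 6.56, 7.34 and 6.77 in whole larvae. Array 2 was the lowest of its group, close to array 3, and the groups did not overlap. The difference was 4.29 ± 0.28 log2 units (SE), 19.6-fold (limma adjusted p = 0.00148), with all whole-larva arrays above the upper background estimate. Among the remaining sections it was next highest in gastric caeca, at 9.06 ± 0.65 (SD, n = 3), with 5.21 ± 0.43 in posterior midgut and with 4.30 ± 0.14 in hindgut. Without each of the 6 arrays in turn its difference stayed between 4.07 and 4.52, and that of Ag.3R.871.0_CDS_at between 4.17 and 4.81.

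Probe sets called lower in anterior midgut had median levels slightly above those of all tested probe sets there. Their median level was 5.35, 5.31 and 5.67 on anterior midgut arrays 1, 2 and 3, against 8.23, 8.32 and 8.18 on whole-larva arrays 1, 2 and 3. Array 2 was the lowest of its group for 271 of the 536 and array 3 the highest for 316. The median difference from the whole-larva mean was -2.67, -2.78 and -2.40 log2 units on arrays 1, 2 and 3. At least 10-fold lower were 179, 197 and 117 of them. By the means of the groups the median change was 6.22-fold, with 372 of 4-fold or more and 170 of 10-fold or more, and 220 had an adjusted p under 0.01. For 218 of the 536, all anterior midgut arrays lay below the upper background estimate of their own array. For those, only a lower bound on the fold, taken against that estimate, can be given. All anterior midgut arrays lay below the lower, Pf estimate for 8, and 491 lay above the Pf estimate on all anterior midgut arrays.

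The largest fall was that of Ag.2R.18.0_CDS_at, which read 4.87, 4.91 and 5.02 in anterior midgut, against 12.50, 11.72 and 11.84 in whole larvae. The anterior midgut arrays spread over only 0.16 log2 units, and array 2 lay between the others. The difference was -7.09 ± 0.23 log2 units (SE), 136-fold in the deposited values (limma adjusted p = 0.000379). All 3 anterior midgut arrays lay above the Pf estimate but below the upper background estimate. With the latter put in for them, the probe set was at least 67.4-fold lower by the group means. It read 4.90 ± 0.07 (SD, n = 3) in gastric caeca, 5.15 ± 0.07 in posterior midgut and 4.39 ± 0.21 in hindgut.

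Ag.3R.169.0_CDS_s_at read 5.80, 4.80 and 6.88 in anterior midgut, against 12.81, 12.97 and 12.72 in whole larvae. Here the anterior midgut arrays differed by 2.08 log2 units among themselves, with array 2 lowest and array 3 highest, while the whole-larva arrays were within 0.25. The difference was -7.01 ± 0.50 log2 units (SE), 129-fold (limma adjusted p = 0.00182). Only array 3 was above the upper background estimate of its array, and it alone gave 62.2-fold. With that estimate put in for the arrays below it, the probe set was at least 85.2-fold lower by the group means. That bound is on the means and not on each array. Gastric caeca, at 8.01 ± 0.90 (SD, n = 3), and hindgut, at 7.81 ± 0.29, held more of it, and posterior midgut lay at 6.13 ± 0.32. An _s suffix in IDs of this array maker marks probes shared by several transcripts, so this value may sum more than 1 of them.

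**Figure D4:**
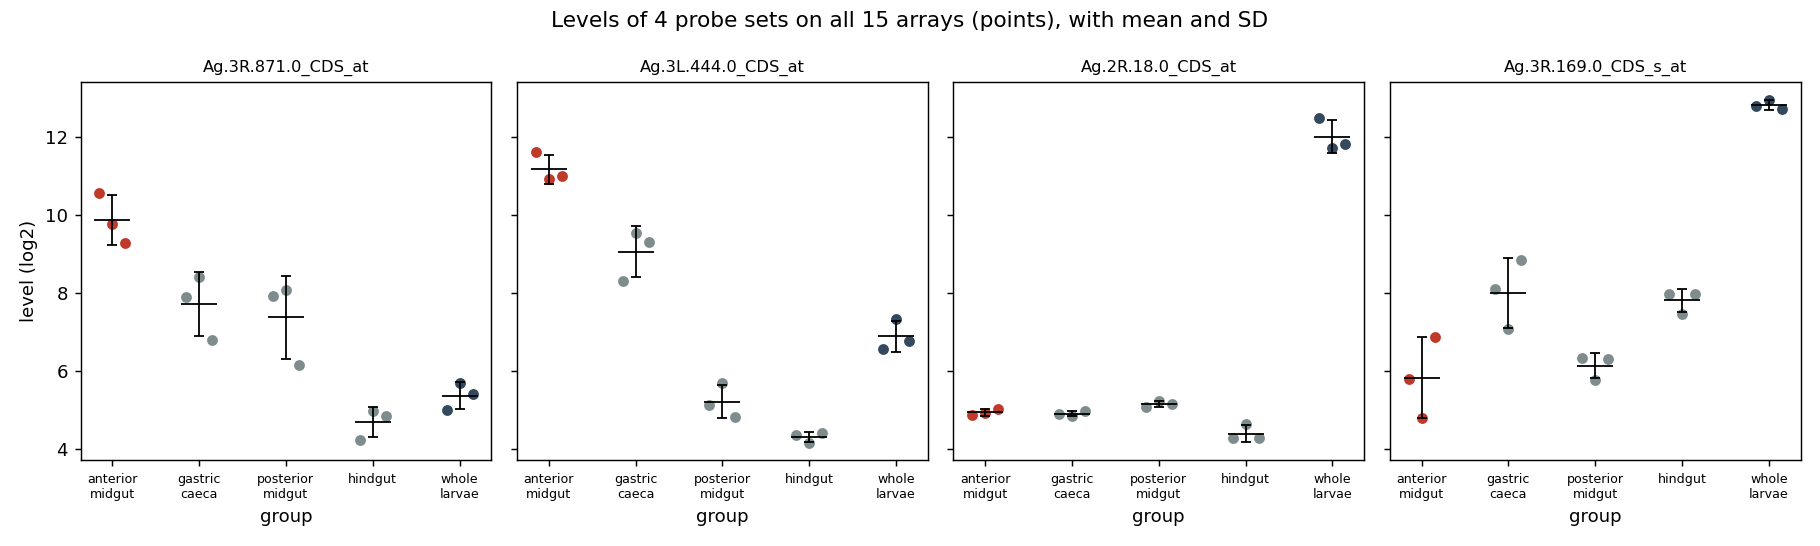
Level in log2 units (vertical) of the 2 probe sets with the largest rise and the 2 with the largest fall, on all 15 arrays by group, with anterior midgut at the left and whole larvae at the right; points are arrays 1 to 3 of a group and bars are the mean and SD. The anterior midgut and whole-larva points do not overlap in any panel.

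Seen across the gut, the called probe sets had graded levels in the other sections. These comparisons use the same whole-larva arrays, and the sets were chosen on the anterior midgut arrays, so the values are a description. The 161 higher probe sets had a median level of 10.52 in anterior midgut, 9.30 in gastric caeca, 9.65 in posterior midgut, 8.04 in hindgut and 7.77 in whole larvae. Anterior midgut had the highest mean of the 4 sections for 121 of them (75.2%, against 38.5% of all tested probe sets), posterior midgut for 19, hindgut for 11 and caeca for 10. Hindgut had the lowest for 124 (77.0%, against 44.1% of all tested). The 536 lower probe sets had a median level of 5.45 in anterior midgut, 6.54 in gastric caeca, 5.65 in posterior midgut, 7.22 in hindgut and 8.30 in whole larvae. Anterior midgut had the lowest mean of the sections for 266 of these (49.6%, against 27.3% of all tested) and posterior midgut for 173 (32.3%, against 14.2%). Hindgut had the highest for 322 (60.1%, against 29.9% of all tested).

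**Figure D5:**
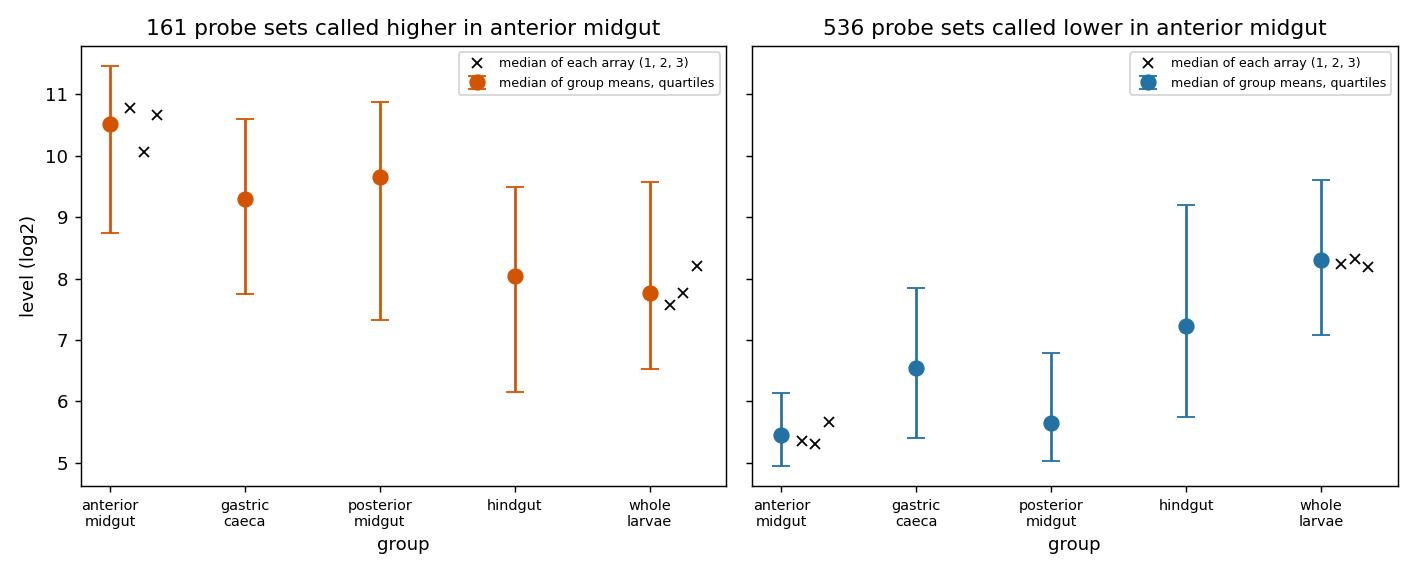
Level in log2 units (vertical) of the 161 probe sets called higher (left) and the 536 called lower (right) in anterior midgut, by group from anterior midgut to whole larvae; dots are medians over the probe sets of the group means, bars reach the quartiles, and crosses are the medians on single anterior midgut and whole-larva arrays. Anterior midgut array 2 has the lowest anterior midgut cross in both panels, at 10.06 and 5.31.

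Probe sets that share an ID stem, the part before the variant number, mostly moved together. The 161 higher calls fell on 151 stems, 9 of them with 2 or more calls, and the 536 lower calls on 461 stems, 56 of them with 2 or more. Of 14906 stems in all, none held both a higher and a lower call. Over all tested probe sets only 0.954% were called higher and 3.17% lower, so such stems would be rare in any case. Stems with a higher call held 38 further probe sets, which were not called. Of these, 33 were also higher by the mean and 20 by at least 2-fold, with a median difference of 1.01 log2 units. Stems with a lower call held 135 further ones, also not called. Of these, 111 were lower by the mean and 50 by at least 2-fold, with a median difference of -0.65. Of all tested probe sets, 2.73% were at least 2-fold higher by the means and 9.76% at least 2-fold lower. Their median difference was 0.06, so a higher mean in anterior midgut was common among all tested probe sets. What the fields of an ID stand for is not given in the sources used here, and probe sets of a stem may share transcripts, so these are no independent measurements.

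Some ID fields held more calls than others. Of the 790 probe sets with UTR in their ID, 9.62% were called lower and 0.759% higher. Of the 14060 with CDS in their ID, 2.77% were lower and 1.04% higher, and of the 2034 with neither, 3.49% and 0.442%. The UTR class had a median difference of -0.55 log2 units, against 0.10 for CDS. It was also the brighter class, with a median level of 6.19 against 5.13. Over all tested probe sets at levels from 6 to 7, the median difference was -0.23, -0.63 and 0.02 on anterior midgut arrays 1, 2 and 3. Without array 2, 6.33% of the UTR class were lower and 2.03% higher, against 1.98% and 1.5% of the CDS class. The UTR class then held the larger share of higher calls as well. Its median difference was then -0.30 log2 units, against 0.08 for CDS. The part of level or of array 2 in the UTR calls was not tested. By the field that reads 2L, 2R, 3L, 3R or X, lower calls made up 3.44%, 3.65%, 3.85%, 3.11% and 2.78%, and higher calls 1.28%, 1.01%, 1.20%, 0.786% and 0.570%. The 1938 IDs with UNKN in that place had 1.14% lower and 0.464% higher calls, and the lowest median level, 4.84. The share of calls in these classes was not tested.

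Counts of detected probe sets depended on the level set for detection. Above the Pf estimate of the own array lay 15657, 15498 and 15789 probe sets on anterior midgut arrays 1, 2 and 3, against 16214, 16082 and 15728 on whole-larva arrays 1, 2 and 3. Above the upper estimate of the own array lay 4567, 2150 and 6516 in anterior midgut, against 8318, 7687 and 7054 in whole larvae. That estimate differs between arrays, and at 1 common level of 6.56 the counts were 2646, 2150 and 3114 in anterior midgut, against 3397, 3670 and 3299 in whole larvae. At the common level 62 probe sets were above it on all anterior midgut arrays and on no whole-larva array, and 372 the other way round. Another 1378 were above it on all 6 arrays. Of the 161 called higher, 34 were below this level on every whole-larva array and 105 above it on all of them, so most were also read in whole larvae.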

How the data were processed

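The deposited values are log2 expression levels, 1 per probe set and array, computed by RMA per the submitters' processing notes, with version and settings not given in the sources used here. RMA corrects background, normalizes between arrays and summarises probes, and understates folds of dim probe sets. No counting depth exists, and the number of arrays limits precision.

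A model with 1 mean per group was fitted to the 6 arrays over 16884 probe sets in limma 3.58.1 (R 4.3.3, lmFit and eBayes, 2.26 prior degrees of freedom), with Benjamini-Hochberg adjustment over all of them. Only these arrays were fitted, since their groups vary more than the others, and a fit of all 15 arrays was an alternative. The IDs described are the 2 largest rises and 2 largest falls past the threshold with groups that do not overlap. Background levels are 95th percentiles per array of the Pf IDs and of 290 IDs starting with a number. Single values per array were compared by exact permutation. Scalings, filters, thresholds, priors, a replicate block and leaving out each array were the alternatives. Groups, lists and tests were chosen with earlier results of these data known.

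The labels do not say that equal replicate numbers mark the same larvae across these groups. Deviations from the group means correlated at 0.06, -0.04 and 0.16 for same-numbered arrays 1, 2 and 3. Arrays of different numbers gave -0.15 to 0.10. With so few arrays in a group these values cannot exclude pairing. The arrays were not treated as paired, and a fit with a replicate block was an alternative.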

Additional observations from a re-analysis of the deposited data

How the results depend on the processing

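Lower calls outnumbered higher calls under each of the 21 alternatives run, while the counts moved. Against 161 higher and 536 lower calls (23.1% higher), the fit of 15 arrays gave 396 and 1343, and array weights 474 and 1103 (30.1%). The weights were 4.83, 0.34 and 0.56 on anterior midgut arrays 1, 2 and 3, so that fit rested mostly on array 1 for this group. Quantile normalization again gave 396 higher calls (45.2%) and centring with scaling 302 (38.2%). A trended robust prior gave a share of 19.7%, and adjustment over every probe set deposited left 103 higher calls. A 4-fold threshold gave 84 higher calls (18.4%), and limma's test against 1.5-fold gave 64 and 303 (17.4%). The methods' t-test at an unadjusted p under 0.05 and 2-fold gave 306 and 961, and after Benjamini-Hochberg 2 and 19 (9.52%). Leaving out 1 array in turn gave 41 to 242 higher and 185 to 565 lower calls, and shares of 15.8% to 39.0%. The difference in array SD ranged from -0.22 to -0.07, and that in 3′ minus 5′ level from -0.12 to 0.072 around -0.03, turning when anterior midgut array 2 (0.072) or whole-larva array 2 (0.044) was left out. The 4 named probe sets kept their direction and passed in each fit, scaling and set of arrays in which they were refitted. They were chosen for the largest differences on these same arrays, so this outcome was largely set by the choice. The replicate block gave 115 and 398 calls, and the arrays share only a number. The cause of these shifts was not tested.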

Other observations

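Probe sets outside the tested ones were fitted once, together with the tested ones, over the whole table. Of 937 whose ID is a sequence accession, 1 was called higher and 2 lower in anterior midgut, and by the means 14 were at least 2-fold higher and 10 at least 2-fold lower. Single anterior midgut arrays 1, 2 and 3 had 22, 43 and 6 of them at least 2-fold above the whole-larva mean, and 10, 12 and 9 at least 2-fold below it. The same limma fit called 0 of the 4506 Pf IDs and 0 of 290 IDs starting with a number. At an unadjusted p under 0.05 there were 46 of the 4506 Pf IDs and 53 of the 290 number IDs, of which 3 and 1 were also at least 2-fold. The number IDs, used above for the upper background estimate, thus differed between the groups in a far larger share. The median difference was 0.03 log2 units over the Pf IDs and 0.22 over the number IDs, which thus read higher in anterior midgut. On array 2 alone 27 Pf IDs and 49 number IDs were at least 2-fold above the whole-larva mean, against 14 and 4 on array 1 and none of either on array 3. None of these Pf or number IDs was at least 2-fold lower on any anterior midgut array.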
